A study of Mus musculus with 24 samples.

Results

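The sites described here are 5161 ATAC-seq peaks of mouse embryonic stem cells that were present in both control libraries of the Chd8 knockdown set and in none of its 4 knockdown libraries. They were chosen by these calls alone. A peak of the first library labelled shluci was taken when it overlapped, by at least 1 bp, a peak of the second shluci library and no peak of the shRNA1 and shRNA2 libraries. The first shluci list held 154566 peaks, of which 92704 overlapped the second list and are called reference peaks here, and the lost sites were 5.57% of these. The 24 lists of the series held 2958411 peaks. A site missing from a list lay below that list's calling threshold, which is not the same as closed chromatin. What the 6 Chd8 lists say about the sites is therefore given as a description, and comparisons rest on the 18 libraries of the CTCF lines, the Chd4 set and the serum set, which the choice did not use.

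All libraries came from E14 cells of the genotype CTCF AID, in which the DNA-binding protein CTCF is fused to an auxin-inducible degron and is degraded when the auxin IAA is added. The Chd8 and Chd4 sets held cells labelled shluci, shRNA1 and shRNA2, all without IAA. The CTCF lines were an overexpressed control, untreated or treated with IAA for 12 h, and lines with overexpressed wild type or mutated CTCF after the same treatment. A serum set had untreated cells and cells given IAA for 12 h, and each of the 12 groups in the series had 2 libraries. The growth protocol gives a serum-free medium with LIF, PD0325901 and CHIR99021 for every library, and the serum libraries are named here by their own labels. The labels do not say what the CTCF mutation changes or whether the 2 libraries of a group were separate cultures, and the spread between them may be technical. Peak lists cannot show how far Chd8 or Chd4 was reduced.

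CHD8 is a chromatin remodeller, an enzyme that uses ATP to move nucleosomes along DNA. It is known as a binding partner of CTCF and of the Wnt effector beta-catenin, and its gene is among those most often mutated in autism. CHD4 is the motor subunit of the NuRD complex, which couples remodelling to histone deacetylation. CTCF binds a long DNA element and keeps nucleosomes off it, so that its sites are usually open. ATAC-seq marks such open DNA by the insertion of adapters by a transposase, and each peak stands for a stretch with more insertions than its surroundings.

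The lists held 135410 to 166697 peaks in the Chd8 set, 120137 to 155087 for the CTCF lines, 80619 to 141742 for the Chd4 set and 59786 to 82502 in the serum set. The median peak was 75 to 138 bp wide in the Chd8 set and 80 to 135 bp in the Chd4 set, against 283 to 456 bp among the libraries of the CTCF lines and 371 to 417 bp for serum. A site is thus more easily overlapped by a list of the CTCF lines than by one of the Chd4 set, and the shares of the whole set are read beside those of the reference peaks in the same libraries. Within the Chd8 set the shluci lists had median widths of 81 and 120 bp, the shRNA1 lists 95 and 75 bp, and the shRNA2 lists 128 and 138 bp. In length, 3 of the 4 shRNA lists (135410 to 149422 peaks) were shorter than both shluci lists (154566 and 166697), and with all 6 lists reduced to the shortest 3692 sites were lost. The part of list length and width in the calls was not tested further. The sequencing depth is not given in the lists. Of 10 marker genes of embryonic stem cells, 7 to 8 had a peak at a start in the Chd8 lists, as had 2 to 3 of 6 fibroblast markers and 2 to 5 of 5 primitive endoderm markers.

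The sequences of 14 of the named sites show the kinds of DNA among the lost sites. The first 6 are 30-base stretches (GRCm38) centred on the match to the 14-base CTCF consensus, which is in capitals, and are written in the direction of the motif. They belong to lost sites that every library of the control line and the serum set held before IAA and no library of them held after it.

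Near Gm33312 and Batf, minus strand, chr12:85663060-85663089: ccagatagCCACTGGAGGGCAGcaaagata
Near D10Jhu81e, minus strand, chr10:78160131-78160160: agatatcaCCACCAGAGGGCGCagaagacc
Pitpnc1 intron, minus strand, chr11:107469208-107469237: cggcgcggCCACCGGAGGGCGCtccaggcc
Lpcat1 intron, minus strand, chr13:73505897-73505926: aattctgcCCAGCAGGGGGCGTgagagtgc
Whrn intron, plus strand, chr4:63417497-63417526: catttcagCCACAAGATGGCAGcagagccc
Gm5737 intron, minus strand, chr7:120826621-120826650: ttaggaggCCAGCAGAGGGCAGcagcaggg

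The matches near D10Jhu81e and in Gm5737 have no mismatch to the consensus and the other 4 have 1. The next 3 are the lost sites held by all 18 libraries of the other sets, shown as 121 bases around the summit on the plus strand. Capitals here and in the next block mark matches to the short motifs searched (see the motif counts for their letters).

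Upstream of Rasgrp1, chr2:117343132-117343252: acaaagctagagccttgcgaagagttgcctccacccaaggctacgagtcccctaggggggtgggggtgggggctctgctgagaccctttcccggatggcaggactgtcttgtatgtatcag
Camk2d intron, chr3:126606819-126606939: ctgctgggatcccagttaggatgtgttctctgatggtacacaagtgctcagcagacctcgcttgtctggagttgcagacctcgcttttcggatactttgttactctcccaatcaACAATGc
Hcn3 coding exon, chr3:89147864-89147984: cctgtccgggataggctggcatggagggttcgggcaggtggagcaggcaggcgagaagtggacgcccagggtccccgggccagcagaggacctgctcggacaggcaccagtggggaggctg

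The last 5 are 2 of the strongest lost sites, in an intron of Zfp541 and beside Dcdc2a, and 3 of the strongest at promoters, with the same window and strand.

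Zfp541 intron, chr7:16080850-16080970: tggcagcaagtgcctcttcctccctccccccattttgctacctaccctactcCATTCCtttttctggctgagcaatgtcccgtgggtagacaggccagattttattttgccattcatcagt
Near Dcdc2a, chr13:25052801-25052921: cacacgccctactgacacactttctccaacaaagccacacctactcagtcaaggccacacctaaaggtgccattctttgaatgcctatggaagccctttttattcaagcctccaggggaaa
Catsperg1 promoter, chr7:29211500-29211620: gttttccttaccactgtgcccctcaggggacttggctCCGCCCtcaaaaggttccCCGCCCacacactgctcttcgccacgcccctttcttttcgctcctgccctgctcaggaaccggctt
Slc16a12 promoter, chr19:34747399-34747519: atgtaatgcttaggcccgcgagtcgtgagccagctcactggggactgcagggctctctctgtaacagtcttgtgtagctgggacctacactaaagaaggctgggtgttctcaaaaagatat
Fzd2 promoter, chr11:102604060-102604180: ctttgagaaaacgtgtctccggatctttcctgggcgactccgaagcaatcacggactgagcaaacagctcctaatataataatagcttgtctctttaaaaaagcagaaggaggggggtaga

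The lost sites were weak and narrow peaks, by the values that entered the choice. The authors' −log10 p in the first shluci list ranged from 3.52 to 15.7 with a median of 5.61, against a median of 7.98 for the reference peaks and 10.7 for the 50135 retained peaks that all 4 shRNA lists held. The authors' fold over background had a median of 4.38 in the lost sites and 5.51 in the reference peaks. The median width was 61 bp, against 104 bp in the reference peaks and 137 bp in the retained peaks. When the reference peaks were divided at the quartiles of −log10 p, the weakest band held 2623 lost sites (13.3% of the band) and the next 2061 (7.73%). The third band held 443 (1.91%) and the strongest 34 (0.147%). In the second shluci list the overlapping peak had a median −log10 p of 5.43 and a maximum of 130.

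The lists of the 2 hairpins lacked reference peaks that were only partly the same. Of the reference peaks, 13105 (14.1%) were in neither shRNA1 list and 10115 (10.9%) in neither shRNA2 list, and the lost sites are the 5161 in both groups. They make up 39.4% of the first and 51.0% of the second. Just outside the rule, 7845 reference peaks were held by exactly 1 shRNA list, which was shRNA1 replicate 1 for 1998, shRNA1 replicate 2 for 1439, shRNA2 replicate 1 for 2097 and shRNA2 replicate 2 for 2311. For 283 of these the overlap was at most 10 bp.

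Most lost sites had a Chd8 knockdown peak close by. The nearest shRNA peak was within 500 bp of 3129 sites (60.6%), and the median gap was 215 bp. It was within 50 bp of 725 sites, the smallest gap being 0 bp (touching intervals), and between 101 and 250 bp away for 1492 sites. At 356 sites (6.90%) it was over 10 kb away. The 2032 sites with no shRNA peak within 500 bp, called isolated here, are the part of the set where no knockdown peak adjoined the lost interval.

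**Figure D1:**
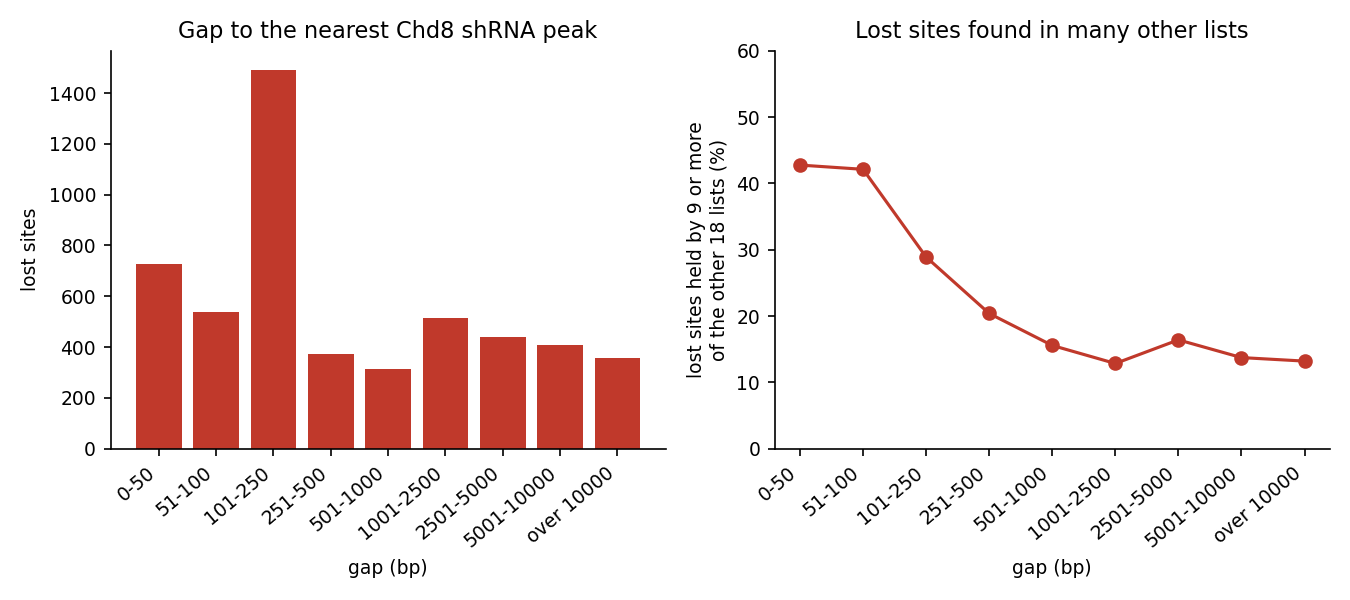
Left, number of lost sites (y axis) by the gap in bp to the nearest peak of the 4 Chd8 shRNA lists (x axis, unequal classes). Right, the percentage of the sites of each class that 9 or more of the other 18 lists held. The class of 101 to 250 bp holds 1492 sites, and the percentage is 42.8 at 0 to 50 bp and 13.2 over 10 kb.

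Libraries outside the Chd8 set held the lost sites far less often than the reference peaks. In the CTCF lines the share of lost sites held was 49.1% and 48.3% in the control line without IAA and 50.4% and 45.4% with IAA. It was 45.1% and 49.2% in the line with wild type CTCF and 51.3% and 51.6% in the line with mutated CTCF. The same 8 libraries held 83.9% to 89.0% of the reference peaks and 94.0% to 97.5% of the retained peaks, so that the ranges did not overlap. The 2 Chd4 shluci libraries held 13.2% to 19.9% of the lost sites and 60.9% to 65.0% of the reference peaks. The serum libraries held 17.1% and 14.1% without IAA and 18.8% and 21.6% with IAA, against 56.6% to 65.4% of the reference peaks.

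The lost sites were also held less often than the retained peaks within bands of −log10 p in the first shluci list. These bands leave the second list unmatched, where the median −log10 p was 5.43 for the lost sites and 16.1 for the retained peaks, and they leave the width unmatched. In the weakest band the 8 libraries of the CTCF lines held 42.8% to 50.6% of the lost sites and 89.3% to 94.7% of the retained peaks. In the next band these ranges were 44.8% to 50.6% and 91.6% to 95.7%. Of 129 lost sites with an authors' −log10 q of at least 5 in both shluci lists, these libraries held 62.8% to 77.5%, against 93.6% to 97.5% of the 39763 reference peaks under the same limit.

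**Figure D2:**
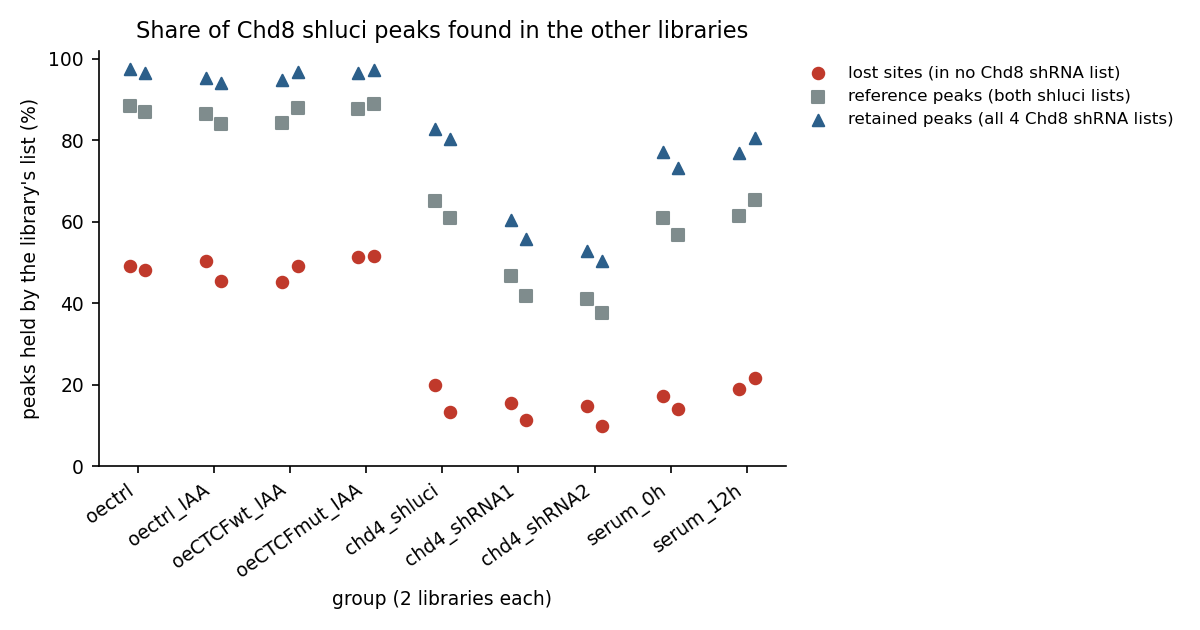
Percentage of peaks (y axis) that each library's list held, for the 9 groups outside the Chd8 set (x axis, 1 point per library). Circles are the lost sites, squares the reference peaks and triangles the retained peaks. In every one of the 18 libraries the lost sites are lowest, between 9.86% and 51.6%.

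Counted per site, the lost sites were found in few other lists. A median of 5 of the 18 lists held a lost site, against 13 for a reference peak and 15 for a retained peak. No other list held 712 lost sites (13.8%), as was the case for 1.38% of the reference peaks and 0.0339% of the retained peaks. Between 1 and 8 lists held 3115 lost sites (60.4%) and 9 or more held 1334 (25.8%, reference peaks 81.3%), while 126 were in at least 14 and 3 in all 18. All 8 lists of the CTCF lines held 1298 lost sites (25.2%) and 73.4% of the reference peaks, and none of the 8 held 1235 lost sites (23.9%) and 3.49% of the reference peaks. The lost sites thus ranged from peaks present throughout the CTCF lines to peaks found in the 2 Chd8 shluci lists alone.

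**Figure D3:**
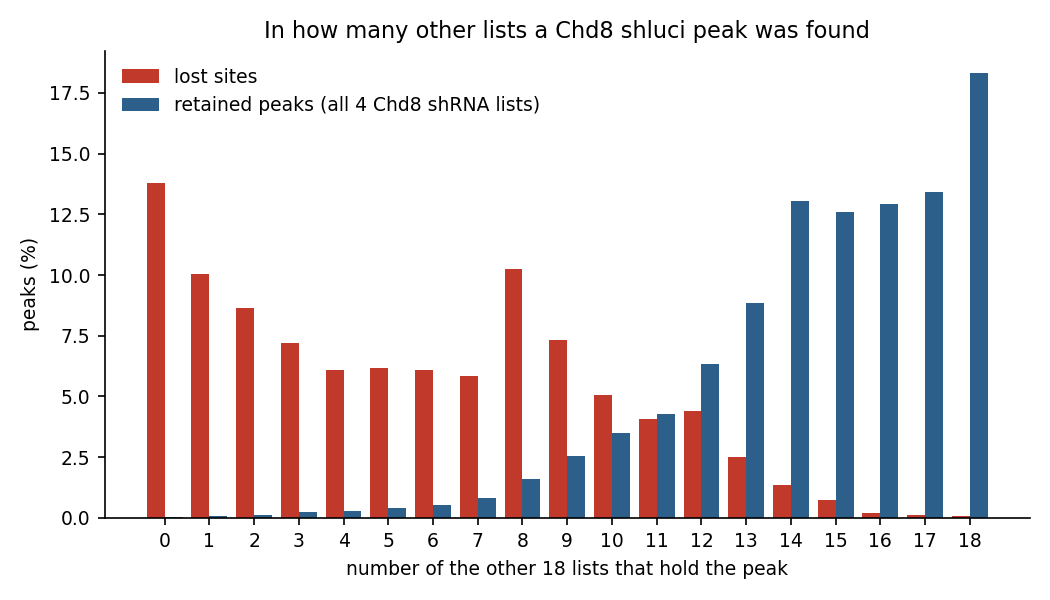
Percentage of lost sites and of retained peaks (y axis) by the number of the other 18 lists that held the peak (x axis). The lost sites lie at 0 to 13 lists for the most part, with 13.8% at 0, and the retained peaks rise to 18.3% at 18.

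Isolated sites and sites beside a knockdown peak differed in this respect. The 8 libraries of the CTCF lines held 33.3% to 38.0% of the isolated sites and 52.1% to 61.4% of the others, and these ranges did not overlap. In the serum set they were 7.09% to 13.4% and 18.7% to 26.9%. In the Chd4 set they were 7.92% to 17.8% and 11.1% to 21.25%, which overlapped. Of the 18 libraries, only Chd4 shRNA2 replicate 1 held more of the isolated sites (15.75%) than of the others (14.3%). No other list held 448 isolated sites (22.0%) and 264 of the others (8.44%). A promoter was the place of 4.72% of the isolated sites and of 10.5% of the others. The CTCF consensus was found at 6.40% and 5.05%.

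The lost sites lay away from promoters. The summit was at most 500 bp from an annotated gene start for 426 lost sites (8.25%, Wilson 95% interval 7.53% to 9.04%), 25.3% of the reference peaks and 32.9% of the retained peaks. The intervals cover counting error only. In the weakest band of −log10 p the share was 8.96% of the lost sites and 27.3% of the retained peaks, and in the next band 7.23% and 28.5%. Introns held 2386 lost sites (46.2%), intergenic DNA 1972 (38.2%), coding exons 193 (3.74%) and other exons 184 (3.57%), against 37.0%, 31.8%, 3.10% and 2.77% of the reference peaks. The median distance to a start was 12723 bp, against 7108 bp for the reference peaks. At the promoter sites the nearest start was that of a protein-coding gene in 64.8%, a lincRNA in 9.86% and a processed pseudogene in 8.22%, where the reference peaks at promoters had 83.5%, 4.64% and 1.95%.

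Base composition followed the same order. Mean GC content within 250 bp of the summit was 49.1% in the lost sites, 52.1% in the reference peaks and 53.2% in the retained peaks, and the mean number of CpG in this window was 8.83, 14.8 and 17.1. Soft-masked repeats covered 18.7% of the bases within 100 bp of a lost summit on average, against 14.9% in the reference peaks. These measures moved stepwise with the number of shRNA lists that held a peak, with the lost sites at one end. From 0 to 4 lists the promoter share was 8.25%, 11.7%, 15.4%, 21.3% and 32.9%.

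**Figure D4:**
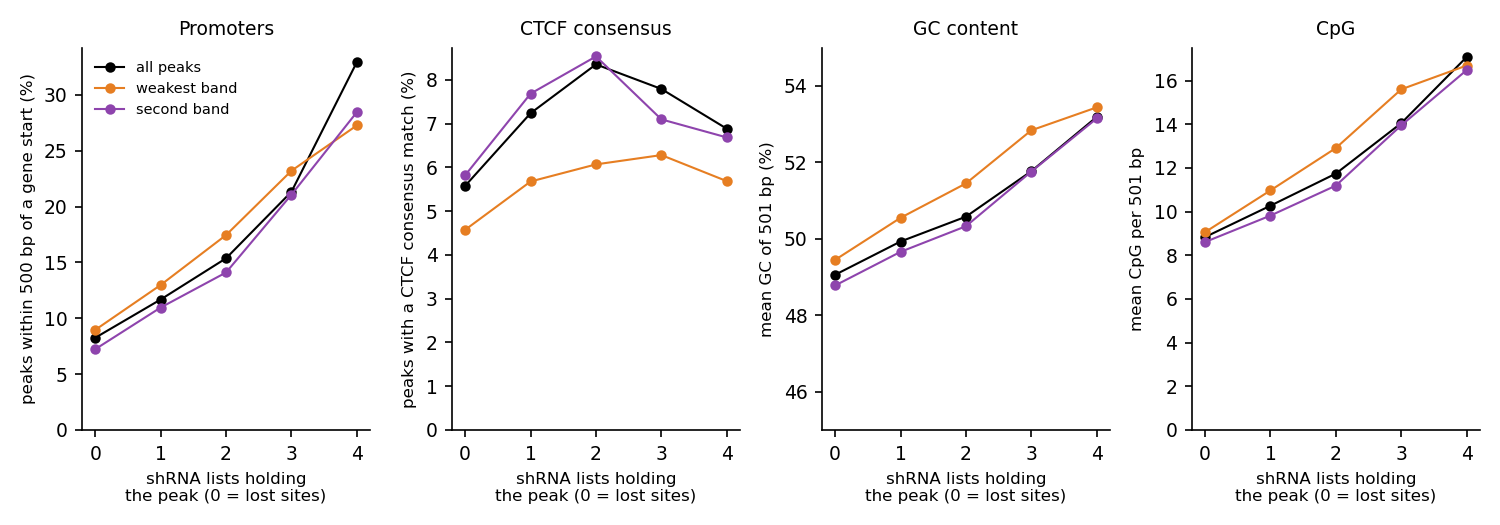
Promoter share, CTCF consensus share, mean GC content and mean CpG number (y axes) of the reference peaks by the number of Chd8 shRNA lists that held them (x axis, 0 being the lost sites). Black points are all peaks and coloured points the 2 weakest of the 4 bands of −log10 p, and the GC axis starts at 45%. The promoter share goes from 8.25% to 32.9%, and the consensus share is highest at 2 lists, at 8.36%.

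Some gene starts kept a peak where a lost site lay. Of 284 lost sites within 500 bp of a protein-coding start, 115 (40.5%) had a peak summit within 500 bp of the same start in all 4 shRNA lists, and 53 (18.7%) had one in none. Over all 20555 reference peaks at such starts these shares were 90.6% and 0.306%, the peak itself counting where a shRNA list held it. The CTCF lines held 62.7% to 78.5% of the 284 sites, the serum set 46.1% to 56.7% and the Chd4 set 12.0% to 23.9%. The corresponding shares of these reference peaks were 96.0% to 98.3%, 90.2% to 94.3% and 43.6% to 73.7%.

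Among the strongest promoter sites, that of Dchs2, an atypical cadherin, had a −log10 p of 12.0 and 6.62 in the 2 shluci lists and was held by 9 of the 18 other lists. At Lmo1, which codes for a LIM-only transcriptional cofactor, the values were 11.9 and 4.12, and all 4 serum lists but none of the 8 CTCF-line lists held the site. The Polb promoter, of DNA polymerase beta, was the converse in part, with 8 of 8 CTCF-line lists and 1 of 4 serum lists. Sites at Snx10 (a sorting nexin), Slc16a12 (a monocarboxylate transporter), Fgf10 (a growth factor) and Catsperg1 (a subunit of the sperm calcium channel) were held by all 12 of these lists. That at Fzd2, a Wnt receptor, was held by all 8 of the CTCF lines and by 3 of the serum set. Of these 8 promoter sites, Catsperg1 was the only isolated one, with the nearest shRNA peak 2122 bp away, while at Slc16a12 it lay 19 bp away.

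The comparison with the Chd4 set asked whether sites lost with the Chd8 hairpins also went missing with hairpins of another remodeller. The Chd4 shluci libraries held 1026 and 681 lost sites, the shRNA1 libraries 797 and 580, and the shRNA2 libraries 767 and 509. As shares these were 19.9% and 13.2%, then 15.4% and 11.2%, then 14.9% and 9.86%. The reference peaks had 65.0% and 60.9% with shluci, 46.7% and 41.8% with shRNA1 and 41.1% and 37.5% with shRNA2. The first library of each group held more sites than the second, and the groups overlapped, while each shluci library held more than both shRNA libraries of its own replicate number. The mean was 16.5% ± 4.73 (SD, n = 2) with shluci and 12.8% over the 4 shRNA libraries, and the difference of 3.69 percentage points was smaller than the spread between libraries taken without regard to that number (5.46 points). For the reference peaks the same difference was 21.2 points with a spread of 4.79. As ratios of shRNA to shluci these were 0.777 for the lost sites and 0.663 for the reference peaks. The difference at the lost sites was 15.97 points with all Chd8 lists at a −log10 q of at least 5, 0.344 without the first Chd4 shluci library and −0.232 when the sites were chosen without the first Chd8 shluci library. With all Chd4 lists reduced to the 80619 strongest peaks the lost sites differed by 1.25 points, above a spread of 0.256, and the reference peaks by 20.4 (spread 3.51).

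Few lost sites could be followed peak by peak in the Chd4 set. Both Chd4 shluci lists held 296 of them, and 109 of these (36.8%, Wilson 95% interval 31.5% to 42.5%) were in none of the 4 Chd4 shRNA lists. Over all reference peaks held by both shluci lists, 14.4% were called in this way. Among the lost sites in neither Chd4 shluci list, 28 of 3750 (0.747%) were in all 4 Chd4 shRNA lists, against 2.11% of the reference peaks. The share missing was 33 of 87 for isolated sites (37.9%) and 76 of 209 for the others (36.4%). Within the weakest band of −log10 p, 49 of 136 lost sites were called (36.0%), against 24.6% of the reference peaks and 21.1% of the retained peaks of that band. In the next band it was 45 of 114 (39.5%), against 20.1% and 16.7%. In the third band it was 12 of 41 (29.3%), against 15.7% of the reference peaks, and in the strongest 3 of 5. The bands match −log10 p in the first Chd8 shluci list only, and strength in the second list and in the Chd4 lists was not matched.

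Among the strongest sites lost in both sets were sites in introns of Zdhhc21 (−log10 p 12.6 and 4.37 in the Chd8 shluci lists), a palmitoyltransferase, and of Ankrd31 (12.6 and 5.43), a meiotic protein. Others were a coding exon of Tbc1d8 (11.1 and 6.75) and intergenic sites 89293 bp from Zfp462 (9.68 and 11.5) and 56870 bp from Mmrn1 (9.43 and 7.21). The Zdhhc21 site was held by all 8 lists of the CTCF lines and by none of the serum set. The Tbc1d8 site was held by all 12 of these lists. That in Ankrd31 was held by all 4 serum lists and 2 of the CTCF lines.

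In the control line the share of all lost sites held differed with IAA by less than the spread between libraries. Untreated libraries held 48.7% ± 0.616 (SD, n = 2) and IAA libraries 47.9% ± 3.55 (SD, n = 2), a difference of 0.794 points against a spread of 3.60, and it turned to −1.82 at equal list lengths. The reference peaks differed by 2.51 points (spread 2.16), and by 1.795 (spread 2.60) at equal list lengths. The difference was 5.43 points at the 129 lost sites with a −log10 q of at least 5 in both shluci lists. It was 5.26 at the 1360 sites chosen with all Chd8 lists at that limit, most of which overlap a weaker shRNA peak. Both untreated libraries held more of these 1360 sites (82.9% and 81.0%) than both IAA libraries (78.5% and 74.8%), as they did of the reference peaks at the limit (97.5% and 96.7%, against 94.9% and 93.6%). In serum untreated libraries held 15.6% ± 2.12 (SD, n = 2) and IAA libraries 20.2% ± 1.99 (SD, n = 2), and both IAA libraries lay above both others. The difference of −4.59 points (without minus with IAA) exceeded the spread of 2.91, and the reference peaks differed by −4.60 points with a spread of 4.12. As ratios of IAA to untreated these were 1.29 for the lost sites and 1.08 for the reference peaks. With the serum lists reduced to the 59786 strongest peaks the difference was −1.65 points at the lost sites (spread 0.694). It was −1.845 at the reference peaks (spread 1.92). At the 129 sites the difference turned to 1.16. The lines with wild type and mutated CTCF differed from the control line with IAA by −0.746 points (spread 4.59) and 3.57 points (spread 3.56). For the reference peaks these differences were 0.894 points (spread 3.20) and 3.13 points (spread 2.07).

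Peak by peak, both control libraries without IAA held 2008 lost sites, and neither IAA library held 192 of them (9.56%), where 3.7% of the reference peaks were called so. In serum 66 of 489 (13.5%) were lost with IAA, against 4.52% of the reference peaks. Gains were below the background in both media, with 132 of 2142 lost sites (6.16%) in the control line, against 12.4%, and 146 of 4037 (3.62%) in serum, against 10%. Of the lost sites in neither control list with IAA, both lists of the wild type line held 134 of 2193 (6.11%, background 18.1%) and both of the mutated line 156 (7.11%, background 19). Loss with IAA was above the share of the reference peaks in the 3 weaker bands of −log10 p in the first shluci list, in both media. In the control line it was 8.29% of the lost sites in the weakest band, against 4.21% of the reference peaks, and 10.3% against 4.53% in the next, and in serum it was 11.6% against 5.24% and 14.4% against 5.95%. The third band had 27 of 224 lost sites (12.1%) against 3.89% in the control line and 11 of 56 (19.6%) against 5.08% in serum. In the strongest band the counts were 3 of 17 and, in serum, none of 4, too few to compare. The bands match −log10 p in the first Chd8 shluci list only. Strength in the second list and in the control-line and serum lists was not matched. Of the 2222 lost sites that both control lists of at least 1 of the Chd4, control line and serum comparisons held, 345 (15.5%) were lost in at least 1, against 13.1% of the reference peaks. With IAA in both media it was 19 of 384 (4.95%), against 1.80%.

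A CTCF consensus match with at most 1 mismatch lay within 250 bp of the summit of 288 lost sites. This is 5.58% (Wilson 95% interval 4.99% to 6.24%), against 7.20% of the 92704 reference peaks in windows of the same length. Permuted consensuses were found in 0.622% of the lost sites, 0.953% of the reference peaks and 1.07% of the retained peaks. This background was thus also lowest in the lost sites. The consensus share rose with the strength of the lost sites, from 4.58% in the weakest band and 5.82% in the next to 9.93% in the third (44 of 443) and 11.8% in the strongest (4 of 34). In the reference peaks the 4 bands had 5.77%, 7.17%, 8.06% and 7.60%. Peaks held by 1 shRNA list had the same kind of rise, with 5.68%, 7.69%, 9.58% and 14.8%, as had those held by 2 lists (6.07% to 13.7%) and by 3 (6.28% to 12.4%), while the retained peaks had 5.69%, 6.69%, 7.15% and 7.07%. Under a −log10 q of at least 5 in both shluci lists, 14 of 129 lost sites had the consensus (10.9%), against 7.51% of the reference peaks.

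The lost sites with the consensus were sensitive to IAA. In the control line 137 and 121 of the 288 were held without IAA (47.6% and 42.0%) and 64 and 58 with IAA (22.2% and 20.1%). In serum 87 and 72 were held without IAA (30.2% and 25%) and 36 and 37 with IAA (12.5% and 12.8%). In both media the libraries with IAA lay below those without, and the groups did not overlap. The mean difference was 23.6 points in the control line and 14.9 in serum. With only the shluci lists at a −log10 q of at least 5 it was 35.7 in both (14 sites). With all Chd8 lists at that limit it was 40.2 and 35.2, at 128 sites with the consensus. Only 14 of these 128 overlapped no peak of the full shRNA lists. With either Chd8 shluci library left out of the choice the difference was 16.3 and 16.4 in the control line and 10.5 and 10.04 in serum. Reference peaks with the consensus fell as well, from 85.9% and 83.4% to 57.9% and 54.2% in the control line and from 70.5% and 65.8% to 42.1% and 45.7% in serum, so that the lower share with IAA was not particular to the lost sites. Lost sites without the consensus went from 49.2% and 48.6% to 52.1% and 46.9% in the control line and from 16.4% and 13.5% to 19.2% and 22.1% in serum.

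The lines with overexpressed CTCF lay in between. With IAA, 92 and 90 of the 288 sites were held in the line with wild type CTCF (31.9% and 31.2%) and 86 and 97 in the line with mutated CTCF (29.9% and 33.7%). All 4 libraries were above the 2 of the control line with IAA and below the 2 without it. The lines with wild type and mutated CTCF had means of 31.6% ± 0.491 (SD, n = 2) and 31.8% ± 2.70 (SD, n = 2), so that no difference between them was detectable beyond the spread. Among reference peaks with the consensus both lines also lay between the control line with and without IAA, with means of 84.7% without IAA, 56.1% with IAA, 75.57% in the wild type line and 74.7% in the mutated line.

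**Figure D5:**
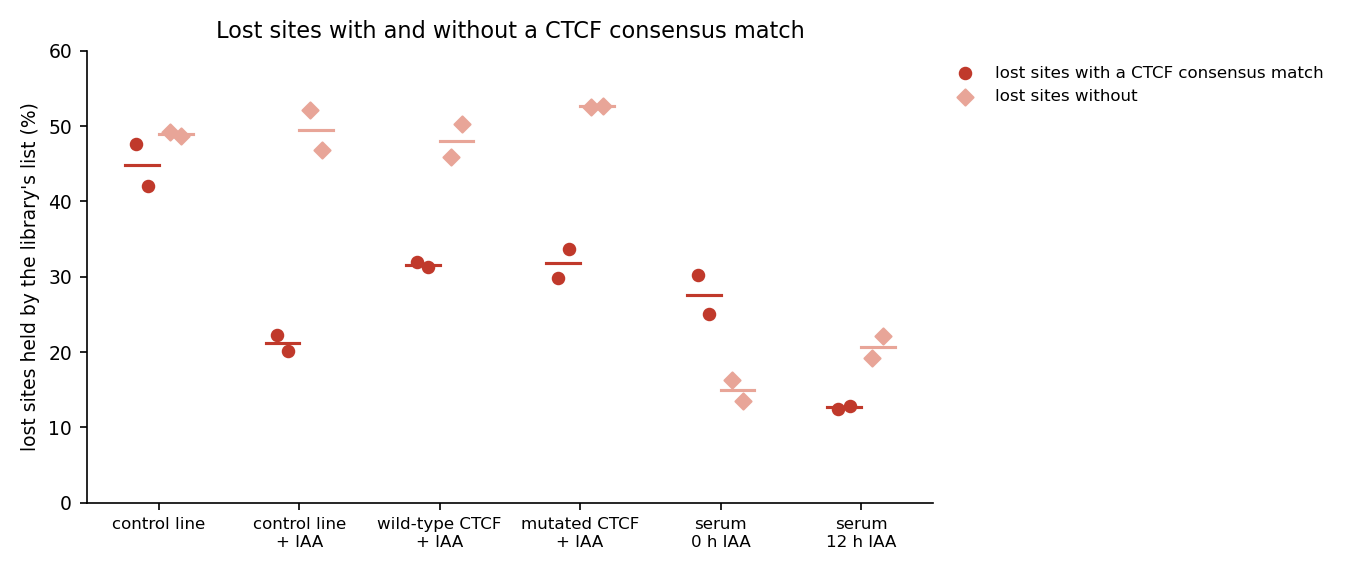
Percentage of lost sites (y axis) held by each library of the CTCF lines and the serum set (x axis), for 288 sites with a CTCF consensus match (circles) and the sites without (diamonds), with the mean of 2 libraries as a line. Sites with the match go from a mean of 44.8% to 21.2% with IAA in the control line and from 27.6% to 12.7% in serum.

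Peak by peak, 49 of 101 lost sites with the consensus that both control libraries held were in neither IAA library (48.5%), against 26.1% of the reference peaks with the consensus. Without the consensus it was 143 of 1907 (7.50%), against 2.06%. In serum the counts were 21 of 45 (46.7%, reference 28.2%) and 45 of 444 (10.1%, reference 2.42%). In both media together, loss with IAA was found for 10 of 31 lost sites with the consensus (32.3%, reference 14.2%) and 9 of 353 without it (2.55%, reference 0.729%). Peak strength was not matched in these comparisons of lost sites and reference peaks. The 6 lost sites whose motif stretches are printed above had −log10 p values of 5.73 to 11.6 in the first shluci list.

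These 6 sites differed in the lines with overexpressed CTCF. The site 9578 bp from D10Jhu81e was held by all 4 libraries of those lines, and the site in Pitpnc1, which codes for a phosphatidylinositol transfer protein, by none. The Whrn site was held by both wild type libraries and neither mutated library. In Lpcat1, the gene of a lysophospholipid acyltransferase, 1 wild type and 2 mutated libraries held the site, and in Gm5737 it was 2 and 1. The site 23555 bp from Batf, a transcription factor gene of the AP-1 family, was held by 1 of each. The motif lay 39 to 58 bp from the summit at 5 sites and 188 bp from it in Gm5737.

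The 3 lost sites held by all 18 other lists adjoined a knockdown peak. The site upstream of Rasgrp1, a gene for a Ras exchange factor, had a −log10 p of 6.12 and 14.4 in the shluci lists, a percentile of 74.0 to 95.6 by −log10 p within the 18 other lists, and a shRNA peak 56 bp away. The site in an intron of Camk2d, a calmodulin-dependent kinase gene, had 5.38 and 9.78 and a shRNA peak 8 bp away. The site in a coding exon of the ion channel gene Hcn3 had 4.81 and 7.97 and a shRNA peak 286 bp away. A further 6 sites were in 17 lists, at the starts of Vill and Wdr1, in introns of Znrf1, Ankmy2 and Gm49128, and 3319 bp from Gm9972, and 10 sites were in 16, the strongest of them an X-linked site 90316 bp from Gm15076. For these 7 named sites the nearest shRNA peak was 2 to 345 bp away. None of the sites in 17 or 18 lists was isolated, and 4 of the 10 in 16 lists were.

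The 8 strongest lost sites by −log10 p in the first shluci list lay between 13.8 and 15.7. The site in Zfp541, a germ cell zinc finger gene, had 15.7 and 4.37 in the 2 shluci lists, and the nearest shRNA peak was 2309 bp away. It was held by 2 of 2 control libraries without IAA, 0 of 2 with IAA, all 4 libraries with overexpressed CTCF, 1 of 2 Chd4 shluci lists and all 4 Chd4 shRNA lists. It has no CTCF consensus match with at most 1 mismatch. The site in Egf, a growth factor gene, had the same pattern in the CTCF lines and no Chd4 list. The site beside Dcdc2a had 15.4 and 23.6 and was held by all 8 lists of the CTCF lines, 1 Chd4 shluci list and no serum list. Sites in introns of Tnrc6b, a gene of microRNA-mediated silencing, and of Fam49b were held by all 8 CTCF-line lists and both Chd4 shluci lists, and by 1 and 3 of the 4 Chd4 shRNA lists. Those in Trim24 and 14449 bp from Ythdf3, a reader of methylated RNA, were held by only 3 of the 18 lists each.

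Lists of genes tied to CHD8, to CTCF or to these cells had from 3.26% to 6.74% of their reference peaks among the lost sites, on either side of the 5.57% over all reference peaks. Within 50 kb of a start, 12 of 178 reference peaks of 20 Wnt and beta-catenin genes were lost sites (6.74%), as were 13 of 278 of 28 autism-linked genes (4.68%) and 10 of 186 of 17 p53 targets (5.38%). The counts were 7 of 125 for 19 neural lineage genes (5.60%), 5 of 122 for 18 mesoderm and endoderm regulators (4.10%), 12 of 296 for 20 CHD and NuRD genes (4.05%), 15 of 388 for 22 pluripotency genes (3.87%) and 7 of 215 for 22 cell cycle genes (3.26%). Counted per gene, a lost site lay within 50 kb for 9 of 17 p53 targets, 10 of 20 CHD and NuRD genes, 11 of 22 pluripotency genes, 8 of 20 Wnt genes, 8 of 28 autism-linked genes, 7 of 22 cell cycle genes, 6 of 19 neural genes and 4 of 18 mesoderm and endoderm regulators. Of 19038 protein-coding genes with a reference peak within 50 kb, 6007 (31.6%) had one. The number of reference peaks near a gene differs between the lists and was not matched.

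Near these listed genes the strongest lost sites were mostly in non-coding DNA. A site near genes of both the p53 and the cell cycle list was 8732 bp from Trp53inp1 (−log10 p 11.7 and 5.72), and the Fas promoter, of a death receptor, had a site with 6.94 and 5.43 that 14 of the 18 other lists held. The Znrf3 intron, in a gene for a Wnt receptor ubiquitin ligase, had 9.68 and 10.2 and was held by the 8 CTCF-line lists and no other. The site 14954 bp from the cyclin gene Ccnd1 had 6.27 and 5.43 and the same 8 lists plus 1 Chd4 shluci list. A site 4097 bp from Rbbp7, which codes for a histone-binding NuRD subunit, had 10.6 and 18.8, and a site 16231 bp from the homeobox gene Otx2 had 11.1 and 3.37.

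Short motifs were counted within 100 bp of the summit on both strands. The GC box GGGCGG of KLF and SP factors was in 7.44% of the lost sites and 15.6% of the reference peaks in windows of the same length. The ETS site CCGGAAG was in 1.98% and 3.47%, the NRF1 core GCGCATGC in 0.504% and 0.962%, and the CRE site TGACGTCA in 0.252% and 0.549%. These elements are common at promoters. The GATA site AGATAA was in 9.51% of the lost sites and 7.08% of the reference peaks, the SOX element ACAATG in 11.2% and 9.96%, the AP-1 site TGANTCA in 6.90% and 5.99%, and the TEAD site GGAATG in 11.7% and 11.8%. The OCT octamer ATGCAAAT was in 1.28% and 1.65%, and the TCF/LEF site ATCAAAG, bound by the partners of beta-catenin, in 3.35% and 3.02%. Matches are letters in a window and not binding sites.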

How the data were processed

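ATAC-seq peak lists of 24 libraries in narrowPeak layout were used, 1 per library. Per the submitters' processing notes, Trim Galore, Bowtie2, MACS2 and deepTools were used with the build mm10, and no role, version or threshold is given in the sources used here. The deposited fold of a peak is a ratio of its signal to background, and the deposited −log10 p and −log10 q are the authors' scores of a peak within its own list. They served only for ranking and filtering within a list. The lists give no read numbers, so the depth and the counting error of a peak are unknown. Overlaps of at least 1 bp, shares, spreads and gaps were computed with Python 3.11.15, numpy 2.4.6 and scipy 1.17.1, and checked on simulated lists. The spread of a difference is the root of the summed squared SDs of its groups. Sequences came from the RefSeq GRCm38 assembly and genes from GENCODE vM21. No test was run on the sites. The sites, the gene lists and the settings were chosen with earlier results of these data known. Named sites were, outside chromosome 18, the 10 in most other lists, the 8 strongest, the 6 strongest also lost in the Chd4 set, 6 with the CTCF consensus lost with IAA in both media, the 8 strongest at promoters of protein-coding genes, and up to 2 per gene list. Some of these sites are not reported here. Alternatives changed the overlap, the gap, the list length, the −log10 q limit, the anchor list, the libraries used and the pairing by replicate number.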

Additional observations from a re-analysis of the deposited data

How the results depend on the processing

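The number of lost sites, 5161 (5.57% of the reference peaks), was 129 with shluci peaks at a −log10 q of at least 5. This is 0.324% of the 39763 reference peaks at that limit. With all Chd8 lists at the limit 1360 sites were chosen (3.42%), and only 129 of them overlapped no peak of the full shRNA lists. With no shRNA peak within 500 bp the number was 2032. Leaving out a library gave 6600 to 46717 sites, the highest (46717 and 37231) without a shluci library, where a single list anchors the rule. The consensus share was 10.9%, 9.41% and 6.40% under those 3 settings, 0.872% within 50 bp (reference peaks 0.888%), 1.30% without mismatch (reference 1.89%) and 3.83% to 6.36% with a library left out. The promoter share was 12.1% with all Chd8 lists at the limit, 4.72% with no shRNA peak within 500 bp, 9.32% with 50% overlap, 7.24% from the second shluci list, 12.0% within 1000 bp, 5.50% at protein-coding starts and 5.72% to 10.1% with a library left out. The Chd4 difference, 3.69 points, was 3.88 with shluci peaks and 16.0 with all Chd8 lists at the limit. With a library left out it was −0.232 to 7.03, the negative value without shluci replicate 1 and 0.344 without Chd4 shluci replicate 1. The IAA difference in the control line, 0.794 points, turned to −1.82 with equal list lengths, to −0.126 when a list of the control line had to cover 50% of a site and to −0.0621, −0.192 and −1.72 without shluci replicate 1, shluci replicate 2 or IAA replicate 2, within −1.72 to 3.30. It was 5.43 with shluci peaks and 5.26 with all lists at the limit. In serum, −4.59 points became 1.16 with shluci peaks at the limit and −1.65 with equal list lengths, and −6.09 to −3.09 with a library left out. At consensus sites, by alternatives chosen after seeing the data, the control-line difference of 23.6 points was 35.7 and 40.2 at the 2 limits and 16.3 to 28.0 with a library left out. The serum difference of 14.9 points was 35.7, 35.2, 18.9 from the second shluci list and 10.0 to 19.6. Neither changed sign. The cause of these changes was not tested. With the replicate number as a block, also chosen after seeing the data, the Chd4 differences were 4.73 and 2.65 points (mean 3.69, SD 1.47), those in the control line −1.28 and 2.87 (mean 0.794) and those in serum −1.69 and −7.50 (mean −4.59, SD 4.11). The Chd4 difference thus exceeded its spread within numbers and not across them, and nothing in the labels says that a number marks a shared culture. Depth, not given in the lists, limits which weak sites a list can hold.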

Other observations

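The lost sites were spread over the genome. The share of reference peaks that were lost sites ran from 4.73% on chromosome X to 6.45% on chromosome 13 among the autosomes and X, and chromosome Y had 11 reference peaks and no lost site. Another lost site lay within 10 kb of 573 of them (11.1%), the median gap between neighbours was 218 kb, and 18 runs held 3 or more sites, the longest 4. Of genes chosen after their counts were seen, Ccn1, which codes for a matricellular protein, had the most lost sites within 50 kb of a start, 5 of 11 reference peaks. Hoxb6 and Pou2f2, genes of developmental and lymphoid transcription factors, had 4 of 8 each. Neighbouring genes share such sites, as Rps24 and Polr3a may, with 4 of 8 each.

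The content of the lost sites changed with the number of other lists that held them. From sites in 0 lists to sites in 14 to 18 lists, the promoter share went from 3.65% to 24.6% and mean GC content from 47.2% to 52.5%. The consensus share went from 6.74% (48 of 712) to 3.18% (4 of 126). A shRNA peak lay within 500 bp of 37.1% and 82.5% of these sites. The lists counted include those from cells with IAA, which held fewer sites with the consensus, so the number of lists and the consensus share are not independent. By the gap to the nearest shRNA peak, the consensus share had no single trend. It was 2.21% up to 50 bp, 3.15% up to 100 bp, 7.51% up to 250 bp, 3.49% up to 500 bp and 3.17% up to 1000 bp, and 5.64% to 7.74% in the classes beyond. How these measures depend on each other was not tested.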
